A study of Mus musculus with 9 samples.

Results

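The expression of 10 genes that are induced by ERK signaling and in large part restrain it was examined in B16 melanoma cells under cyclic straining and blebbistatin treatment. The genes were Dusp4, Dusp5, Dusp6, Spry1, Spry2, Spry4, Spred1, Etv4, Etv5 and Phlda1. They were chosen by symbol, with earlier results of these data known. Each was found as 1 of the 22972 genes listed for every library. B16 is a mouse melanoma line, labelled wild type, and all cells were cultured on a flexible silicone (PDMS) film in medium with serum and collected on day 3. The control group (CTL, n = 3) received neither treatment. The second group (MS, mechanically stimulated, n = 3) was cyclically stretched with the film for 72 h. The third group (Blebb., n = 3) received 100 ng/mL blebbistatin, an inhibitor of the myosin II motor, for 72 h. The labels of the third group name blebbistatin alone, whereas the study's methods start straining once the inhibitor has been added. Straining in this group was therefore taken from the methods and not from the labels. The libraries are numbered as parallel experiments of 1 cell line, and nothing states that they came from separate cultures, so p-values measure the spread between these samples only.

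In the ERK cascade, growth factor receptors activate RAS, which acts through RAF and MEK kinases to phosphorylate ERK, and active ERK turns on a set of genes in the nucleus. Many of these genes close a negative loop: dual-specificity phosphatases of the DUSP family take the phosphates off ERK, while Sprouty and SPRED proteins act above it, between the receptor and RAF. In melanoma, where the cascade is often driven by mutation of BRAF or NRAS, transcripts of such genes are widely read as a measure of pathway output. Transcript levels report the outcome of this regulation and not the phosphorylation of ERK, which was not measured in these libraries.

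The values were FPKM, fragments scaled for the length of the gene and the size of the library, and each library summed to between 439939 and 484093. All 7 melanocyte markers were expressed, with summed levels of 7444 to 12933 FPKM, whereas 6 fibroblast markers summed to at most 0.567 FPKM and 6 keratinocyte markers to at most 0.0314 FPKM. The 6 macrophage markers summed to 2.13 to 4.32 FPKM, nearly all of it Cd68 and Lyz2, and Ptprc was listed at 0 in every library. In each group 1 library stood apart. On the first principal component, which took up 70.4% of the variance, CTL 1 had a score of -42.1 and Blebb. 2 of -43.9, and the other scores ran from -10.0 for MS 3 to 35.8. In CTL 1, MS 3 and Blebb. 2, mitochondrial genes took 10.8%, 11.8% and 8.27% of the FPKM, against 5.07% to 7.19% in the other 6 libraries. The summed level of 8 stress response genes such as Ddit3 and Trib3 was 1538, 1236 and 1549 FPKM in these 3 libraries and 721 to 1043 FPKM in the others. MS 3 stood apart by these 2 measures more than by the principal component. Results are therefore given with and without these 3 libraries.

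The nuclear phosphatase gene Dusp4 (chr8:34807610-34819894, GRCm38) was strongly expressed. Its level was 47.8, 51.2 and 55.1 FPKM in CTL 1 to 3, 40.7, 39.1 and 45.4 FPKM in MS 1 to 3, and 55.8, 47.4 and 59.2 FPKM in Blebb. 1 to 3. The 3 MS libraries lay below every library of both other groups, which overlapped with each other. As mean ± SD (n = 3), Dusp4 measured 51.4 ± 3.65 in CTL, 41.7 ± 3.26 in MS and 54.1 ± 6.08 FPKM in Blebb. Dusp6 (chr10:99263231-99267489) encodes the cytoplasmic phosphatase that is most selective for ERK. It measured 20.6, 36.0 and 38.5 FPKM in CTL, 28.1, 29.5 and 21.9 in MS and 45.5, 25.2 and 51.1 in Blebb. The libraries Blebb. 1 and Blebb. 3 held the highest levels of all 9 libraries, but Blebb. 2 lay within the MS range, so the groups overlapped. The means were 31.7 ± 9.67, 26.5 ± 4.04 and 40.6 ± 13.6 FPKM in CTL, MS and Blebb. Dusp5 (chr19:53529145-53541809), whose product is an ERK phosphatase of the nucleus, was close to absent. Its levels were 0.0372, 0.0751 and 0.102 FPKM in CTL, 0.0183, 0.0208 and 0.0105 in MS and 0.0384, 0.0830 and 0.0624 in Blebb. The MS libraries were the 3 lowest, at a level where a value may rest on very few reads and where the depth is unknown.

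Among the Sprouty genes, which encode membrane-associated inhibitors of receptor signaling, Spry2 and Spry1 were expressed at similar levels. Spry2 (chr14:105891947-105896819) measured 2.76, 7.16 and 7.09 FPKM in CTL, 4.23, 5.27 and 3.62 in MS and 7.80, 6.03 and 9.63 in Blebb. Every Blebb. library exceeded every MS library, and CTL, with CTL 1 the lowest of all 9, overlapped with both. The group means were 5.67 ± 2.52, 4.37 ± 0.834 and 7.82 ± 1.80 FPKM. Spry1 (chr3:37639947-37644599) measured 3.86, 4.83 and 6.19 FPKM in CTL, 3.41, 4.39 and 3.60 in MS and 7.00, 5.01 and 5.93 in Blebb. Again no Blebb. library fell within the MS range, whereas CTL overlapped with both groups, with means of 4.96 ± 1.17, 3.80 ± 0.518 and 5.98 ± 0.995 FPKM in CTL, MS and Blebb. Spry4 was the weakest of the 3 Sprouty genes, at 0.125, 0.988 and 0.866 FPKM in CTL, 0.531, 0.732 and 0.179 in MS and 1.20, 0.285 and 1.79 in Blebb. Within each group 1 library was far below the other 2, namely CTL 1, MS 3 and Blebb. 2, and all 3 groups overlapped. Spred1 (chr2:117121071-117182279) encodes an adaptor that brings neurofibromin to RAS, and it differed from the Sprouty genes in pattern. It measured 4.69, 9.48 and 10.9 FPKM in CTL, 9.63, 6.35 and 8.64 in MS and 6.82, 3.69 and 10.4 in Blebb. Its means were nearly equal, at 8.35 ± 3.24, 8.21 ± 1.68 and 6.98 ± 3.38 FPKM, with wide overlap.

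Etv4 (chr11:101769747-101785310) and Etv5 (chr16:22381313-22439570) encode transcription factors of the PEA3 group of the ETS family, which are activated by ERK and carry its signal to further genes. Etv5 measured 0.433, 3.00 and 3.50 FPKM in CTL, 2.22, 3.04 and 0.657 in MS and 5.56, 0.698 and 7.24 in Blebb. Etv4 measured 0.0741, 1.39 and 1.35 FPKM in CTL, 0.695, 1.58 and 0.463 in MS and 2.61, 0.426 and 3.99 in Blebb. For both genes Blebb. 1 and Blebb. 3 exceeded every other library, while CTL 1, MS 3 and Blebb. 2 were the lowest of their groups, so that the ranges overlapped. The Blebb. mean of Etv5 was 4.50 ± 3.40 FPKM, against 1.97 ± 1.21 FPKM in MS and 2.31 ± 1.64 FPKM in CTL. For Etv4 it was 2.34 ± 1.80 FPKM, against 0.911 ± 0.588 FPKM in MS and 0.937 ± 0.747 FPKM in CTL. Phlda1 (chr10:111506286-111508649), a pleckstrin homology domain gene induced by ERK in many cells, had the highest level of the set. It measured 153.5, 176.3 and 128.3 FPKM in CTL, 134.1, 151.1 and 151.8 in MS and 149.7, 198.7 and 138.5 in Blebb. Its highest value was that of Blebb. 2, a library in which 8 of the 10 genes had the lowest level of their group (44.4% of all genes tested), and its means of 152.7 ± 24.0, 145.6 ± 10.0 and 162.3 ± 32.0 FPKM overlapped.

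**Figure D1:**
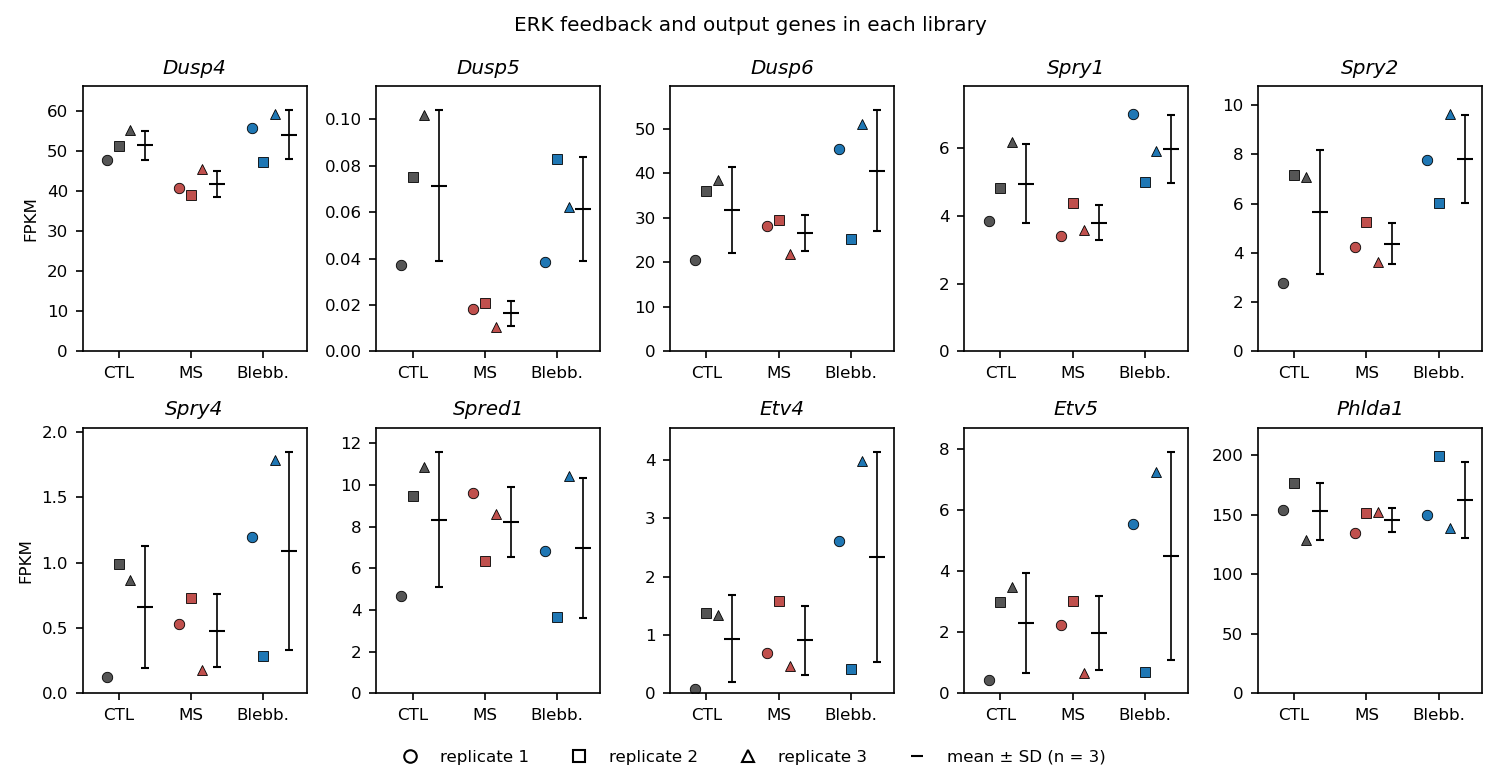
Level of each gene (FPKM, vertical axis from 0) in the 3 CTL, 3 MS and 3 Blebb. libraries, with circles, squares and triangles for replicates 1, 2 and 3 and black bars for the mean ± SD (n = 3). For Dusp4, Dusp5, Spry1 and Spry2 the Blebb. points lie wholly above the MS points, whereas for Dusp6, Spry4 and Etv5 the Blebb. 2 square lies within the MS range and for Etv4 just below it.

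FPKM is scaled by gene length, so levels could be ordered between genes. By the median over 9 libraries, Phlda1 (151 FPKM) was followed by Dusp4 (47.8 FPKM), Dusp6 (29.5 FPKM), Spred1 (8.64 FPKM), Spry2 (6.03 FPKM), Spry1 (4.83 FPKM), Etv5 (3.00 FPKM), Etv4 (1.35 FPKM), Spry4 (0.732 FPKM) and Dusp5 (0.0384 FPKM). Phlda1 lay above all other genes in every library, and Dusp5 below all others in every library. Dusp4 and Dusp6 overlapped in range, as did each pair of neighbours from Spred1 to Spry4. The genes also differed in how much they varied between libraries. The highest library exceeded the lowest by 53.9 times for Etv4, 16.7 times for Etv5, 14.3 times for Spry4 and 9.75 times for Dusp5, but only by 3.48 times for Spry2, 2.95 times for Spred1, 2.48 times for Dusp6, 2.05 times for Spry1, 1.55 times for Phlda1 and 1.51 times for Dusp4. The value of Etv4 rested on CTL 1, at 0.0741 FPKM, and against the next lowest library it was 9.37 times, compared with 11.0 times for Etv5, 9.97 times for Spry4 and 5.58 times for Dusp5.

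The comparison of Blebb. with MS asks which genes differ with blebbistatin, provided that the Blebb. cells were strained as the methods state. If they were not, straining differs as well and cannot be told apart from the inhibitor. Of the 8 ERK feedback and output genes tested, 7 had a log2 fold change above 0 in this comparison, as did 4956 of all 10109 genes tested. Several of the 8 moved together across libraries, so they are not separate observations. Differences were tested with limma on log2(FPKM + 1) in 1 fit over the 9 libraries, for the 10109 genes whose mean reached 1 FPKM, with Benjamini-Hochberg adjustment over all of them. Dusp5 and Spry4 were below this minimum and were compared by an exact permutation test, which cannot go below p = 0.1 with 3 libraries against 3. Fold changes on this scale understate the change of weakly expressed genes. None of the 8 genes passed at an adjusted p of 0.05 (limma, each 0.897), nor did any gene tested (0%), while 126 genes had an unadjusted p under 0.05. Among the 8 genes, 3 had an unadjusted p under 0.05 with Blebb. higher, whereas 0.722% of all genes tested did, namely 73. The same 3 genes, Dusp4, Spry1 and Spry2, had no overlap between the groups with Blebb. higher, as did 3.05% of all genes tested. The median log2 fold change was 0.54 over the 8 genes and -0.0059 over all genes tested. As the genes were chosen with earlier results of these data known, these shares and medians are a description and not a test. In bulk RNA, fewer cells of one kind and less RNA per cell cannot be told apart.

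On the log2(FPKM + 1) scale Spry2 had the largest difference of the 8 genes, with a Blebb. mean 1.79 times that of MS and a value of 0.71 (SE 0.31, 95% interval 0.0094 to 1.40). By ratio of means Etv4 (2.57) and Etv5 (2.28) exceeded it, and with a pseudocount of 0.1 their log2 differences of 0.99 and 0.86 did as well, against 0.81 for Spry2. For Spry1 the ratio of means was 1.57 and the log2 difference 0.54 (SE 0.19, interval 0.11 to 0.96). Dusp4 showed a smaller difference, with a ratio of 1.30 and a log2 difference of 0.36 (SE 0.13, interval 0.080 to 0.65). By unadjusted p, Dusp4 ranked 18, Spry1 21 and Spry2 117 of 10109 genes, and the exact permutation test gave its smallest value, p = 0.1, for each of the 3. The log2 differences of Dusp6 (0.55, SE 0.30), Etv5 (0.70, SE 0.65) and Etv4 (0.67, SE 0.49) were as large, but their intervals of -0.14 to 1.23, -0.78 to 2.18 and -0.44 to 1.77 included 0. Phlda1 differed by 0.14 (SE 0.17, interval -0.24 to 0.52). Spred1 was the 1 gene of the 8 with a lower Blebb. value, at -0.28 (SE 0.36, interval -1.11 to 0.54), and it turned to 0.097 without the 3 libraries that stand apart and to 0.055 without Blebb. 2. Dusp5 had a Blebb. mean of 0.0613 ± 0.0223 FPKM against 0.0165 ± 0.00539 FPKM in MS, without overlap (exact permutation p = 0.1). Spry4 had 1.09 ± 0.756 against 0.481 ± 0.280 FPKM, with overlap (exact permutation p = 0.3).

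The libraries that stand apart decided part of this comparison. Without CTL 1, MS 3 and Blebb. 2, which leaves 2 libraries per group, the log2 differences between Blebb. and MS were 1.03 for Etv5, 1.02 for Etv4, 0.76 for Spry2, 0.72 for Dusp6, 0.61 for Spry1, 0.52 for Dusp4, 0.097 for Spred1 and 0.017 for Phlda1. The first 6 of these genes then had an unadjusted limma p under 0.05, compared with 0.692% of all genes tested in the same direction, yet the smallest adjusted limma p among them was 0.998. With the standing of a library kept as a block in the fit, the same 6 genes had unadjusted p-values between 0.0017 and 0.0258, compared with 3.37% of all genes tested in that direction, and their smallest adjusted p was 0.534 (limma). Leaving out 1 library moved the log2 difference of Etv5 between 0.26 (without Blebb. 3) and 1.40 (without Blebb. 2), that of Etv4 between 0.29 and 1.19, and that of Dusp6 between 0.35 and 0.85 under the same omissions. Without Blebb. 2, 6 of the 8 genes had an unadjusted limma p under 0.05, compared with 0.425% of all genes tested with Blebb. higher. The number was 1 without MS 1 (0.2275% of all genes tested), MS 3 (0.574%) or Blebb. 3 (3.05%). It was 2 without MS 2 (0.900%) and 0 without Blebb. 1 (0.188%). In the pair of standing-apart libraries, the Blebb. 2 level was 1.67 times that of MS 3 for Spry2, 1.39 times for Spry1, 1.15 times for Dusp6, 1.06 times for Etv5, 1.04 times for Dusp4 and 0.920 times for Etv4. In the other libraries, the ratio of the Blebb. to the MS mean was 1.83 for Spry2, 1.66 for Spry1, 1.68 for Dusp6, 2.43 for Etv5, 1.44 for Dusp4 and 2.91 for Etv4. For the remaining genes, the ratio in the standing-apart libraries and that in the others were 7.94 and 2.58 for Dusp5, 1.59 and 2.36 for Spry4, 0.427 and 1.08 for Spred1, and 1.31 and 1.01 for Phlda1. The standing-apart pair is 1 library against 1, and in it the ratio was below 1 for Etv4 and Spred1. In 1 of the sets the ratio was near 1 for Dusp4 (1.04), Etv5 (1.06) and Phlda1 (1.01).

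The libraries also differed in how their levels related to the GC content of genes, with a correlation across genes between -0.64 (MS 1) and 0.55 (Blebb. 1) for the deviation of each library from the mean. When this trend was removed, the log2 difference between Blebb. and MS became 0.19 for Dusp4 and 0.35 for Spry1, both past an unadjusted p of 0.05 before and neither after. Spry2, with the lower GC content of 46.2% against 56.0% and 56.7%, became 0.83 and kept an unadjusted limma p under 0.05. The values for Dusp6, Etv5 and Etv4 were 0.55, 0.60 and 0.47, and those for Spred1 and Phlda1 were -0.022 and -0.063.

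**Figure D2:**
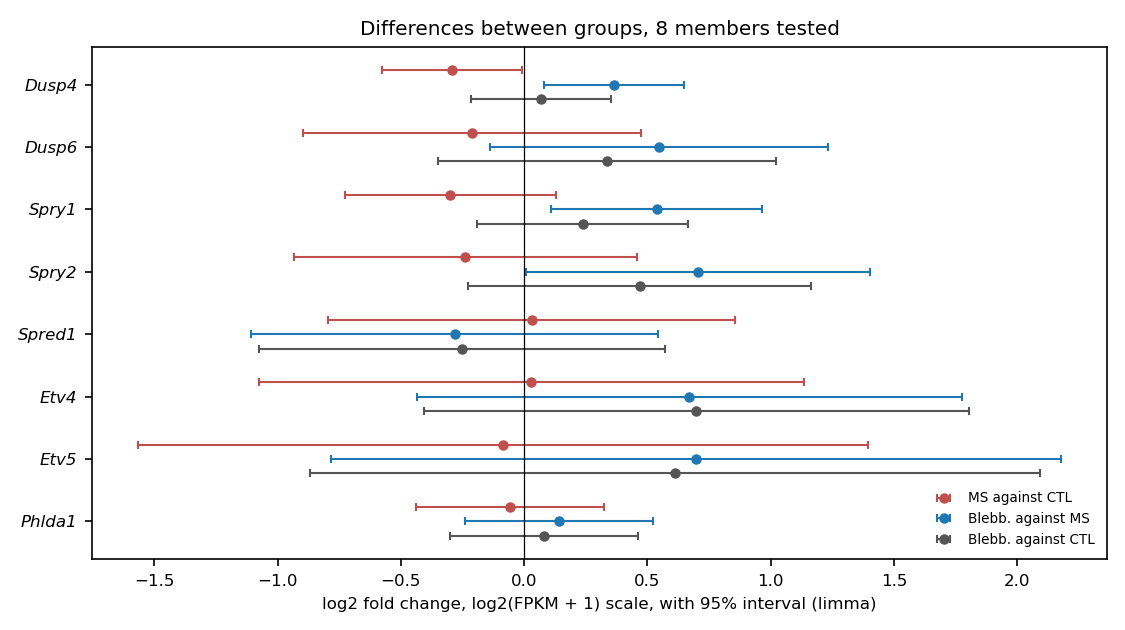
Log2 fold changes (horizontal axis, log2(FPKM + 1) scale) of the 8 genes tested, with 95% intervals from limma, for MS against CTL, Blebb. against MS and Blebb. against CTL. For Blebb. against MS the intervals of Dusp4, Spry1 and Spry2 lie above 0, and 7 of 8 points are above 0, although no adjusted p passed 0.05.

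The comparison of MS with CTL addresses straining itself. Here the log2 fold changes were below 0 for 6 of 8 genes, while 5008 of all 10109 genes tested were above 0. The median was -0.15 over the 8 and -0.0018 over all genes tested. No gene passed the adjusted threshold (0%, limma, each adjusted p 1.00, with 16 genes at an unadjusted p under 0.05). Dusp4 differed by -0.29 (SE 0.13, interval -0.58 to -0.010). It was the 1 gene of the 8 that had an unadjusted p under 0.05 with MS lower (0.0692% of all genes tested) and the 1 without overlap in that direction (2.64% of all genes tested). Spry1 differed by -0.30 (SE 0.19), Spry2 by -0.24 (SE 0.31) and Dusp6 by -0.21 (SE 0.30), and the ranges overlapped for each. Etv5 (-0.085, SE 0.65), Phlda1 (-0.059, SE 0.17), Etv4 (0.028, SE 0.49) and Spred1 (0.030, SE 0.36) lay near 0, with intervals that reached beyond 1 on either side for Etv4 and Etv5. Dusp5 was lower in MS than in CTL in each library (0.0714 ± 0.0325 FPKM in CTL, exact permutation p = 0.1), and Spry4 overlapped (exact permutation p = 0.6). Without the 3 libraries that stand apart, all 8 genes were below 0, with Spry2 at -0.51, Dusp4 at -0.40 and Dusp6 at -0.36, and these 3 had an unadjusted p under 0.05 (0.386% of all genes tested with MS lower). Without CTL 2, by contrast, 4 genes were above 0 and 4 below, with a median of 0.00032, and without CTL 3 the median was -0.054. Spry2 was then at -0.050 and -0.056, and Dusp6 at -0.097 and -0.051. Leaving out CTL 2, CTL 3, MS 1, MS 2 or Blebb. 1 alone raised the unadjusted p of Dusp4 above 0.05, as did removal of the GC trend, quantile scaling and a fit without a variance trend.

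If the Blebb. cells were strained, as taken from the methods, Blebb. and CTL differ in both straining and blebbistatin. Blebb. and CTL were closer for Dusp4, with a log2 difference of 0.070 (SE 0.13). The differences were 0.24 (SE 0.19) for Spry1, 0.34 (SE 0.30) for Dusp6, 0.47 (SE 0.31) for Spry2, 0.61 (SE 0.65) for Etv5, 0.70 (SE 0.49) for Etv4, 0.082 (SE 0.17) for Phlda1 and -0.25 (SE 0.36) for Spred1. None of the 8 genes lacked overlap or had an unadjusted p under 0.05, none of all genes tested passed the adjusted threshold (0%, limma, each adjusted p 1.00), and 9 genes had an unadjusted p under 0.05. Without the 3 libraries that stand apart, Dusp6 (0.37), Etv5 (0.79) and Etv4 (0.84) had an unadjusted limma p under 0.05, compared with 0.198% of all genes tested with Blebb. higher. With the library block, Dusp6, Spry2, Etv4 and Etv5 did, compared with 0.475% of all genes tested. The adjusted limma p stayed at 0.9999 or above for the 8 genes in both fits. Exact permutation gave p = 0.8 for Dusp5 and 0.5 for Spry4. The 3 comparisons share libraries, so the higher values against MS and the lower values of MS against CTL are not separate observations of the MS libraries.

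Within groups the genes split into those that followed the standing-apart libraries and those that did not. Dusp6, Spry2, Spry4, Etv4 and Etv5 were lowest in CTL 1, in MS 3 and in Blebb. 2 within the respective groups, which held for 5 of 10 genes (50%) and for 23.0% of all genes tested. For Etv5, these libraries were at 0.133, 0.250 and 0.109 times the mean of the other 2 libraries of CTL, MS and Blebb. For Etv4 the values were 0.0541, 0.407 and 0.129 times, and for Spry4 0.134, 0.284 and 0.192 times. For Dusp6 they were 0.554, 0.761 and 0.522 times, and for Spry2 0.388, 0.762 and 0.692 times. Phlda1 went the other way, at 1.01, 1.07 and 1.38 times. Dusp4 was the highest of its group in MS 3 (45.4 FPKM), as was Dusp5 in Blebb. 2 (0.0830 FPKM). Mitochondrial share and stress gene level were higher in the 3 libraries in which Dusp6, Spry2, Spry4, Etv4 and Etv5 were low. The part of these measures in the result was not tested. Over the 9 libraries, the 10 pairs among those 5 genes, grouped after their values were seen, had Pearson r between 0.84 and 0.98 on the log2(FPKM + 1) scale. Without the 3 libraries, r lay between 0.87 and 0.98 over 6 libraries. Phlda1 correlated with the other 9 genes at -0.68 to 0.20. These correlations describe libraries that share treatment and preparation, and no test was made of them.

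**Figure D3:**
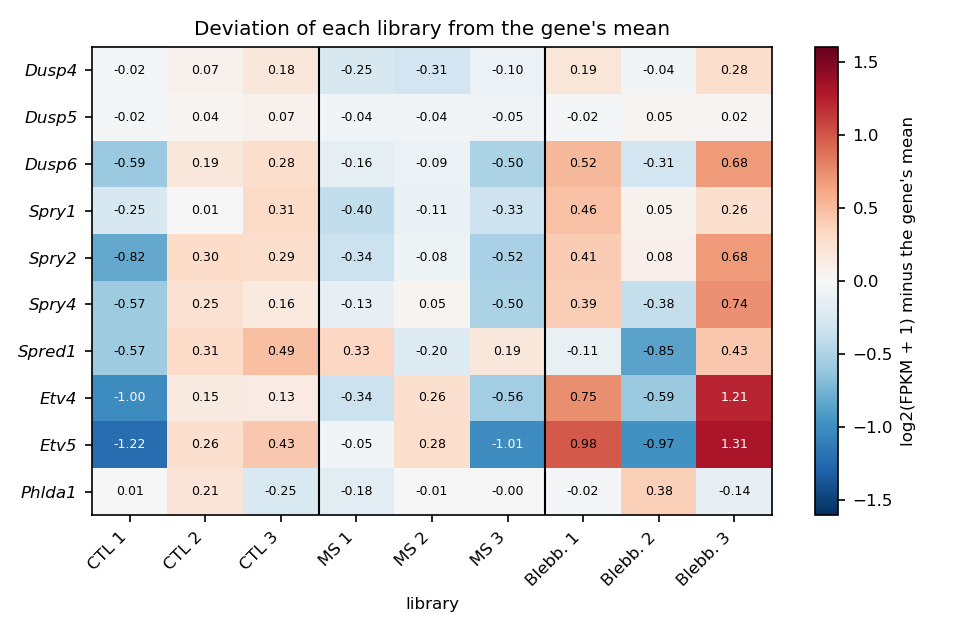
Deviation of each library from the mean of the gene over the 9 libraries (log2(FPKM + 1), red above and blue below), with rows for the 10 genes, columns for the libraries and black lines between groups. Etv4, Etv5, Spry2, Spry4 and Dusp6 are blue in CTL 1 and MS 3 and red in Blebb. 1 and Blebb. 3, whereas the row of Phlda1 is pale except for Blebb. 2.

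The sequence upstream of the genes was read next, because several members moved together across libraries. Capicua is a repressor that binds octamers in the regulatory DNA of ERK output genes and is released when ERK is active. RefSeq windows of 250 bases upstream of the annotated start (GRCm38.p6) were at hand for 6 of the 10 genes, in 7 windows. The octamers searched were TGAATGAA, TGAATGGA, TCAATGAA and TCAATGGA, on both strands. Dusp6 and Spry2 each held 1, whereas no window of Spry1, Spred1, Etv5 or Dusp5 did. Of all 32851 windows, 3.19% held one. The motifs were chosen after the windows had been read, so these shares are a description and not a test. Etv5, without an octamer, correlated with Dusp6 at r = 0.965 over the 9 libraries, against 0.926 for Spry2. The Dusp6 and Spry2 windows are printed because they hold a match and belong to 2 genes that varied together, and the Spry1 window is printed as a gene that had no match but also no overlap between Blebb. and MS. Each is written 5′ to 3′ on the strand of its gene. Capitals mark the octamer, which lies on the opposite strand in both cases, so that the letters shown are its reverse complement. The Dusp6 window is chr10:99262981-99263230 on the plus strand, with 16 bases between the octamer and the start. The Spry2 window is chr14:105896820-105897069 on the minus strand, with 46 bases between. The Spry1 window is chr3:37639697-37639946 on the plus strand.
Dusp6: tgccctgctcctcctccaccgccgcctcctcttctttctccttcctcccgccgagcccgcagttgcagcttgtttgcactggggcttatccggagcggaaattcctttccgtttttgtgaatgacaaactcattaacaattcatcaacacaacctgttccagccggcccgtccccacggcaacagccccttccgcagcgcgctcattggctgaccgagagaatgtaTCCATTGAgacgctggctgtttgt
Spry2: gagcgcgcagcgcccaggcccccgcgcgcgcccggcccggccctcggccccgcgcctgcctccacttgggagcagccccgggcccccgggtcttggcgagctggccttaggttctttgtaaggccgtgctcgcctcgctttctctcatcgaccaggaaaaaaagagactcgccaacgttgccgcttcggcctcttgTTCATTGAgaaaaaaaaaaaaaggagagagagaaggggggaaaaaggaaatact
Spry1: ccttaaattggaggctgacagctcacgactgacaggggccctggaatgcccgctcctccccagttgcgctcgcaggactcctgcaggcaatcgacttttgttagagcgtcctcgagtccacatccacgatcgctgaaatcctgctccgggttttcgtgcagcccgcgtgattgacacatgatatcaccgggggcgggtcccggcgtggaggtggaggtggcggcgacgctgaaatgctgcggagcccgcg
The ETS site CCGGAAGT, the AP-1 site TGACTCA and the cyclic AMP response element TGACGTCA were in none of the 7 windows, so no match overlapped another. They were in 2.88%, 4.46% and 1.55% of all windows, respectively. A match is a run of letters and not a measured binding site, and the absence of one applies to these windows alone.

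Genes from the same families and from elsewhere in the cascade were then set beside these 10. Of 13 further DUSP, Sprouty, SPRED, ETV and PHLDA genes, 12 were listed and 8 tested, and 6 of the 8 had a log2 difference between Blebb. and MS above 0, with a median of 0.30. None of the 8 had an unadjusted limma p under 0.05. With Blebb. higher, 1 of the 8 had no overlap, as did 3.05% of all genes tested. It was Phlda3 (107.6 ± 2.82 FPKM in Blebb. and 91.0 ± 5.15 FPKM in MS, log2 difference 0.24). The largest differences were those of the phosphatase genes Dusp2 (0.46) and Dusp8 (0.42) and of Spred3 (0.36) and Spred2 (0.35). Dusp2 did not share the pattern of Dusp6, since it was highest in Blebb. 2 (12.1 FPKM), CTL 1 (10.8 FPKM) and MS 3 (8.23 FPKM) and between 3.26 and 6.01 FPKM in the other libraries. Between MS and CTL the median of these 8 genes was -0.14, and between Blebb. and CTL it was 0.14.

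Of 18 other genes known as ERK outputs, 8 were tested, 5 of which had a log2 difference between Blebb. and MS above 0, with a median of 0.10 and none at an unadjusted limma p under 0.05. Fosl1, Ereg and Areg, a transcription factor and a pair of EGF receptor ligands, were listed at 0 in all 9 libraries. Ccnd1, the gene of cyclin D1 that drives entry into the cell cycle, measured 79.2 ± 37.3 FPKM in Blebb. and 49.2 ± 17.8 FPKM in MS, a log2 difference of 0.61. Myc, a growth-promoting transcription factor, differed by 0.31. Both were lowest in CTL 1, MS 3 and Blebb. 2 of their groups, at 29.0, 28.7 and 36.3 FPKM for Ccnd1. Fos, an immediate early gene, differed by -1.08, with 1 library, MS 3, at 15.2 FPKM against 0.527 to 1.49 FPKM in the other 8. Ier3, also an early response gene, differed by -0.40. Hbegf, an EGF receptor ligand, was the 1 gene of the 8 tested without overlap, at 1.71 ± 0.238 FPKM in Blebb. and 1.27 ± 0.147 FPKM in MS. Of all genes tested, 3.05% had no overlap with Blebb. higher. Of the genes below the minimum, the potassium channel gene Kcnn4 had no overlap either, at 0.244 ± 0.0577 FPKM in Blebb. and 0.130 ± 0.0169 FPKM in MS. The summed level of the 18 genes was 93.6, 110.9 and 109.9 FPKM in CTL 1, MS 3 and Blebb. 2 and 165 to 209 FPKM in the other libraries.

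The genes that encode the cascade itself had a median difference on the other side of 0. Of 18 RAS, RAF, MEK, ERK, adaptor and regulator genes, 17 were tested, 7 were above 0 between Blebb. and MS, and the median was -0.089, with none at an unadjusted limma p under 0.05. The largest differences were -0.56 for the scaffold gene Shoc2, -0.48 for the RAS exchange factor Sos2, -0.47 for Nras and -0.37 for the RAS GTPase-activating gene Rasa1. Ksr1, a scaffold for RAF and MEK, was the 1 gene of the 17 without overlap, at 0.20 with Blebb. higher, as were 3.05% of all genes tested. Of the 8 stress response genes, 7 were above 0 with a median of 0.20, and none had an unadjusted limma p under 0.05 or lacked overlap. The largest of these were Sesn2 (0.39), Trib3 (0.37) and Asns (0.37), with Ddit3 at -0.24.

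**Figure D4:**
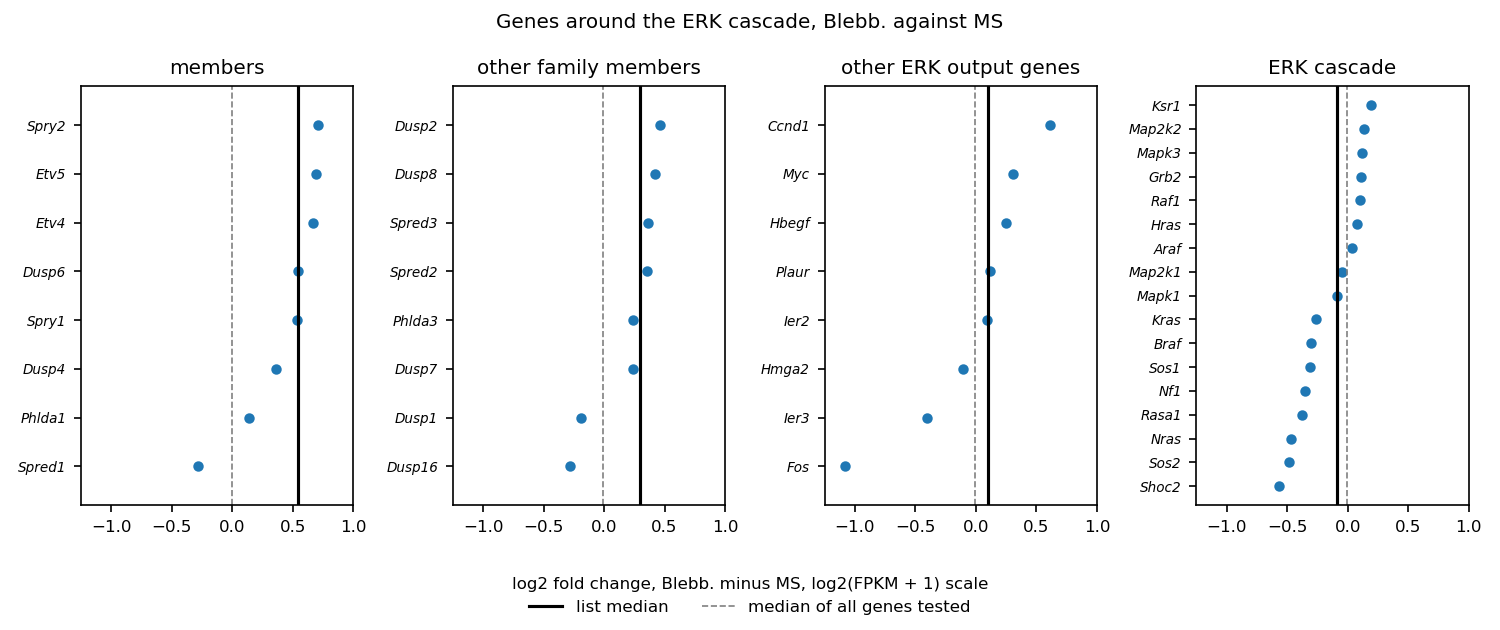
Log2 fold change between Blebb. and MS (horizontal axis, log2(FPKM + 1) scale) for each tested gene of 4 lists, with a black line at the median of the list and a dashed line at the median of all genes tested. The medians are 0.54 for the ERK feedback and output genes (panel "members"), 0.30 for other family members, 0.10 for other ERK output genes and -0.089 for the ERK cascade.

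The genes outside the set with the most similar pattern were sought by Pearson r over the 9 libraries between log2(FPKM + 1) and the mean of the 10 standardized profiles, among 6999 genes whose mean reached 5 FPKM. They were Fam149a (r = 0.955), Spred2 (0.945), Bri3bp (0.940), Rpia (0.934) and Wrnip1 (0.928), and over the 6 libraries that do not stand apart their r was 0.954, 0.972, 0.906, 0.883 and 0.930. Across the candidates, the median r was 0.088 and the 95th percentile 0.750. Spred2, a paralog of Spred1 that likewise restrains RAS signaling, measured 3.94, 7.49 and 7.89 FPKM in CTL, 5.48, 5.43 and 4.05 in MS and 7.63, 4.43 and 8.40 in Blebb. It was lowest in CTL 1, MS 3 and Blebb. 2 of their groups, as were the 5 genes described above.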

How the data were processed

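RNA of B16 cells was extracted with TRIzol and libraries were made with the SMARTER mRNA-Seq kit, 9 libraries in 3 groups of 3, grouped by the treatment label. The authors deposited 1 FPKM value per gene and library, scaled by gene length and mapped fragments before deposit. The column of CTL 1 is headed by a sample name and was read as FPKM. The submitters' processing notes name GRCm38 and mm10, while the aligner, counter and annotation are not given in the sources used here. Strand use in counting is not given either, so antisense reads could not be told apart. Values shared no common step (at most 1.6% of low-value ratios in a bin), so reads were not recovered, depth is unknown and no interval for counting error is given. No 2 libraries were identical. Of 22972 genes, 6489 were at 0 in every library.

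log2(FPKM + 1) was fitted in R 4.3.3 with limma 3.58.1 (eBayes with a mean-variance trend, two-sided, Benjamini-Hochberg adjustment, threshold 0.05) for the 10109 genes whose mean reached 1 FPKM. Genes below it were compared by a two-sided exact permutation test. The code was tested on simulated data. Alternatives were a pseudocount of 0.1, no minimum or a minimum of 5 FPKM, median-of-ratios and quantile scaling, no trend, the compared groups alone, the replicate number as block, removal of a loess trend (span 0.5) on GC content (9663 genes with a value), a block for the 3 libraries that stand apart, their removal, and leaving out each library. The 3 libraries that stand apart were picked from these same values, as no label gives a batch, so their block and their removal also rest on the data. Their block joined to GC removal was added after the data were seen. All 10 genes were named, and from each list at most 4 with the largest difference between Blebb. and MS. Genes named for lack of overlap, for their level in single libraries or at 0 were chosen after their values were seen. Members and lists were chosen with earlier results of these data known, and the motifs after the windows had been read. Gene positions and promoter windows came from RefSeq GRCm38.p6 tables, and GC content from the longest GENCODE mouse transcript of each gene symbol. Python 3.11.15, numpy 2.4.6, pandas 2.3.3 and matplotlib 3.10.9 were used.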

Additional observations from a re-analysis of the deposited data

How the results depend on the processing

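No ERK feedback or output gene passed the adjusted threshold under any alternative run. Several settings leave a log2 fold change as it is by construction (a library of the group not compared, another minimum, the blocks, no trend, the compared groups alone). Of the values that could move, 130 of 144 kept their direction when 1 library was left out, 112 of 120 under the other settings listed under processing and 21 of 24 under the joined setting chosen after the data were seen. The reversals concerned Spred1, Phlda1, Etv4 and Etv5, and the cause was not tested. For Blebb. against MS, Spred1 was 0.097 without the 3 libraries that stand apart (-0.59 to 0.055 leaving out 1 library), and Phlda1 was -0.063 after GC removal, with or without the library block (-0.014 to 0.24). For MS against CTL, Spred1 was -0.0046 with quantile scaling, -0.15 after GC removal with or without the library block and -0.33 without the 3 libraries (-0.29 to 0.24 leaving out 1). Etv4 was -0.18 without the 3 libraries (-0.35 to 0.22), Etv5 ranged from -0.61 to 0.29, and Phlda1 was 0.068 after GC removal with or without the library block (-0.18 to 0.050). For Blebb. against CTL, Spred1 ranged from -0.58 to 0.085, and Phlda1 was -0.063 without the 3 libraries (-0.072 to 0.19). Over all genes, 1 passed for Blebb. against MS with GC removal and library block together, where 519 had an unadjusted p under 0.05. Leaving out 1 library gave 0 to 1 genes for Blebb. against MS and 0 to 1 for MS against CTL, the 1 arising without MS 2. With the replicate block, 0 genes passed in each comparison, and of the ERK genes Dusp4 and Spry1 kept an unadjusted p under 0.05 for Blebb. against MS while Spry2 did not. Spry2 also lost it with a pseudocount of 0.1 and with no minimum. Deviations of same-numbered libraries correlated at -0.78 to 0.84, and 2 of 9 pairs were over 0.1. CTL 1 and Blebb. 2, which both stand apart, correlated at 0.92 under different numbers. The median correlation was -0.23 over same-number pairs and 0.20 over different-number pairs. For 2 of 9 libraries the best match had the same number. No pairing by replicate number was seen in these correlations, and whether one exists could not be told from them. Depth is unknown, which limits the weakest genes, Dusp5 and Spry4.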
